A study of Rattus norvegicus with 6 samples.

Results

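The 39 genes described here encode the folding and quality control machinery of the endoplasmic reticulum (ER), the compartment in which secreted and membrane proteins are made. They were taken as a list of gene symbols drawn up with earlier results of these data known, and all 39 were found, out of 21553 genes with a named row in the deposited count table. They fall into 11 chaperones and co-chaperones, 6 disulfide enzymes, 10 subunits of the translocon-associated complex, signal peptidase and oligosaccharyltransferase, and 12 genes of ER-associated degradation and stress sensing. RNA was sequenced from INS-1, an insulin-secreting rat insulinoma line of wild-type background. INS-SMA cells (3 libraries) received an α-SMA gene by lentivirus, the table carrying it as a human ACTA2 sequence, and INS-MOCK cells (3 libraries) are labelled wild type. The labels do not say which promoter drives the transgene, whether INS-MOCK cells received a virus, or whether INS-SMA cells are a clone or a pool. The study asked which genes differ in expression when INS-1 cells overexpress α-SMA.

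A nascent secretory protein enters the ER through the translocon, loses its signal peptide to signal peptidase and receives N-glycans from oligosaccharyltransferase. Chaperones such as BiP (Hspa5) and the lectins calnexin and calreticulin then hold it while protein disulfide isomerases set its disulfide bonds. Proteins that fail to fold are drawn back into the cytosol and degraded (ER-associated degradation), and the membrane sensors IRE1 (Ern1), ATF6 and PERK (Eif2ak3) adjust the whole system in the unfolded protein response. Beta cells load this system heavily, because proinsulin is folded and gains its disulfide bonds there.

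The libraries held 24719503 to 39608609 counts in INS-SMA and 34471794 to 37466920 in INS-MOCK. Assembled transcripts with no gene name or position held 35.8% to 36.7% of them in INS-SMA and 32.7% to 33.0% in INS-MOCK and were not assigned to genes, so reads of a member may be missing from its value. The ACTA2 sequence had 941093 to 1141322 counts in INS-SMA and 103 to 167 in INS-MOCK. The 6 beta cell markers Ins1, Ins2, Pdx1, Nkx6-1, Neurod1 and Slc2a2 were detected in both groups, and all but Slc2a2 fell. Their summed levels were 2012 to 2861 CPM (counts scaled to a normalised total over the tested genes) in INS-SMA and 26527 to 28917 CPM in INS-MOCK. Ins1 made up most of this sum, with means of 1505 CPM in INS-SMA and 22960 CPM in INS-MOCK. Ins1 and Ins2 fell 15.3-fold and 19.6-fold, whereas Pdx1, Nkx6-1 and Neurod1 fell 2.09-fold, 2.58-fold and 2.49-fold. Of 7 fibroblast markers 6 were in the table and 2 were tested, of which 1 rose (Col3a1) and 1 fell (Pdgfra). The sum of all 6 was 11.7 to 13.2 CPM in INS-SMA and 13.7 to 16.9 CPM in INS-MOCK. Pdgfra made up most of this sum, with means of 8.24 CPM in INS-SMA and 15.3 CPM in INS-MOCK. Col3a1 averaged 2.84 CPM in INS-SMA and 0.07 CPM in INS-MOCK. The untested Col1a1, Col1a2, Dcn and Lum were also higher on average in INS-SMA, at means of 0.735 CPM or less. Of 7 immune and endothelial markers 3 were in the table and 1 rose (Ptprc), with sums of 2.26 to 2.94 CPM in INS-SMA and 1.92 to 3.36 CPM in INS-MOCK. Ptprc had 31, 34 and 29 raw counts in the INS-SMA libraries and 0 in every INS-MOCK library. Cd68 and Vwf were lower on average in INS-SMA and did not pass. The part of these changes in the results below was not tested.

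Transcripts of the ER folding machinery were lower in INS-SMA cells across most of the pathway, while of the sensor genes Ern1 and Atf6 rose and Eif2ak3 did not pass. Of 39 members, 30 fell and 5 rose at an adjusted p under 0.05 in edgeR's quasi-likelihood test, and 4 did not pass. All 39 passed the filter on low counts. Across all 13363 tested genes, 27.0% fell and 28.1% rose, 55.1% in all, and set beside these the shares of members were 76.9% for falls and 12.8% for rises. At least 2-fold falls were seen in 26 members, or 66.7%, against 12.5% of all tested genes. In 38 of 39 members the values of both groups did not overlap, against 65.3% of all tested genes. The median log2 fold change of INS-SMA over INS-MOCK was -1.35 over the members and 0.03 over all tested genes. Together the 39 genes held 0.723%, 0.729% and 0.760% of all named-gene counts in the INS-SMA libraries, against 1.66%, 1.65% and 1.62% in the INS-MOCK libraries. In bulk RNA of this kind, fewer cells expressing a gene and less RNA per cell cannot be told apart.

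**Figure D1:**
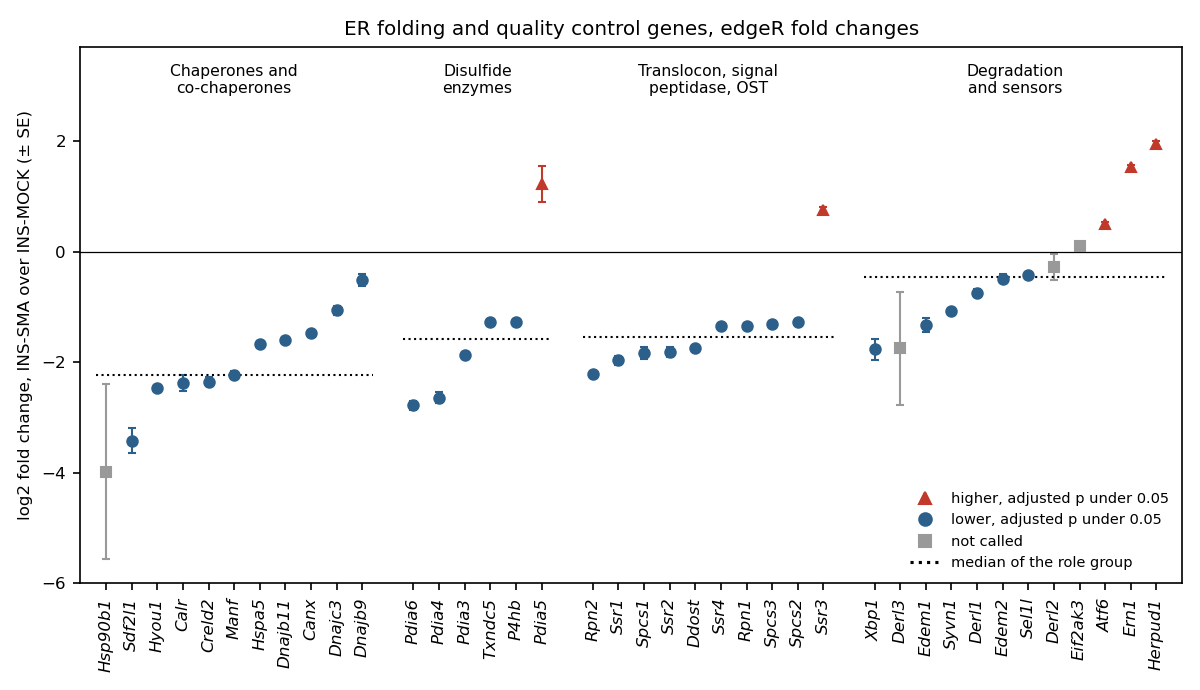
Log2 fold change of INS-SMA over INS-MOCK (y axis, with the standard error as bars) for each of the 39 ER genes (x axis), grouped by role and ordered by size, with the group median as a dotted line. Circles fell, triangles rose and squares did not pass an edgeR adjusted p of 0.05. Chaperones, disulfide enzymes and the translocon group lie mostly between -1 and -3, whereas the degradation and sensor genes run from -1.77 for Xbp1 to 1.94 for Herpud1.

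The falls differed in size between the role groups. The median log2 fold change was -2.23 for chaperones and co-chaperones (10 of 11 fell, 0 rose), -1.58 for disulfide enzymes (5 of 6 fell, 1 rose) and -1.55 for the translocon group (9 of 10 fell, 1 rose). For degradation and sensor genes it was -0.46 (6 of 12 fell, 3 rose). Their share of rises, 25%, was below the 28.1% of all tested genes, and their share of falls, 50%, was above the 27.0%. Summed over their members, chaperones held 0.187%, 0.181% and 0.193% of all named-gene counts in INS-SMA, against 0.627%, 0.629% and 0.601% in INS-MOCK. Disulfide enzymes held 0.121%, 0.123% and 0.134% in INS-SMA against 0.400%, 0.394% and 0.398% in INS-MOCK. Degradation and sensor genes held a larger share in INS-SMA, with 0.231%, 0.235% and 0.233% in INS-SMA against 0.193%, 0.187% and 0.185% in INS-MOCK. This larger share came from the 3 genes that rose, whereas 6 of the 12 fell. Herpud1, Ern1 and Atf6 averaged 479, 507 and 387 CPM in INS-SMA, against 125, 176 and 275 CPM in INS-MOCK. The medians and shares are descriptions of the groups, and the difference between groups was not tested. Replicates were close together for most of these genes: the median coefficient of variation of a member was 6.52% in INS-SMA and 3.6% in INS-MOCK, against 11.8% and 10.8% over all tested genes. Some members varied more, among them Pdia5 (28.7% and 27.8%) and Derl3 (86.6% and 28.9%), which have few counts. Wide spread was not limited to such genes. Hsp90b1 had the largest value, 161% in INS-SMA against 8.62% in INS-MOCK, and Xbp1 had 4.99% and 26.2%. Neither the comparison of variation nor the shares of genes called were matched for abundance.

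ER stress genes are known to share short promoter elements, which are shown here because several of the members carry them. The list holds many such genes, so a high share of members with an element follows from its choice and is not a separate result. The ER stress response element (ERSE) is CCAAT, then 9 bases of any kind, then CCACG, and it is bound in mammals by NF-Y together with ATF6 or XBP1. ERSE-II is ATTGG, 1 base of any kind, then CCACG. The 250 bases before each annotated start were searched on both strands in the RefSeq promoter table (build GRCr8), which held 33 of the 39 members. An ERSE was found in 8 of these 33, or 24.2%, and in 21 of all 27457 genes of the table, or 0.0765%. Chaperones held most of them, with 6 of the 10 that matched, and 2 of 9 degradation and sensor genes did (Derl3 and Xbp1). None of the 4 disulfide enzymes or 10 translocon group genes that matched held one in this window. The sites read as follows on their own strand, with both fixed parts in capitals and the spacer in lower case:
Calr, chr19:40213135-40213153, minus strand: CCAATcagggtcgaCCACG
Canx, chr10:35158069-35158087, minus strand: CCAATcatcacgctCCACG
Creld2, chr7:121789239-121789257, minus strand: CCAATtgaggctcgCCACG
Derl3, chr20:12766601-12766619, plus strand: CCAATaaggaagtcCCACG
Dnajc3, chr15:102432534-102432552, plus strand: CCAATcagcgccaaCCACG
Hsp90b1, chr7:23012451-23012469, minus strand: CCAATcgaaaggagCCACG
Hsp90b1, chr7:23012347-23012365, plus strand: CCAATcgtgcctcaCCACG
Hspa5, chr3:38452973-38452991, plus strand: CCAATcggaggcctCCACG
Xbp1, chr14:84604558-84604576, plus strand: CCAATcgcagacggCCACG

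An ERSE-II was found in Hyou1 (at 2 places) and in Herpud1, that is in 6.06% of the members that matched and in 0.0510% of all genes of the table. Again the fixed parts are in capitals:
Herpud1, chr19:10614821-10614831, minus strand: ATTGGgCCACG
Hyou1, chr8:53602694-53602704, minus strand: ATTGGcCCACG
Hyou1, chr8:53602794-53602804, minus strand: ATTGGgCCACG

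The core of the unfolded protein response element, TGACGTGG, was found in Hyou1 alone, where it shares bases with the farther ERSE-II. It was present in 3.03% of the members that matched and in 0.594% of all genes of the table. The cyclic AMP response element TGACGTCA and the amino acid response core TGATGNAAT were found in 0 of 33 members and in 1.78% and 1.01% of all genes. The 8 members with an ERSE comprised 6 that fell, 0 that rose and 2 that did not pass, with a median log2 fold change of -1.76. The 25 matched members without one comprised 20 that fell, 3 that rose and 2 that did not pass, with a median of -1.31. Of the 8 with an ERSE 6 are chaperones, the role group with the lowest median (-2.23), so element and role cannot be told apart here. The difference between these medians was not tested. Ern1 and Atf6, which rose, and Manf, Pdia3, Pdia6 and Derl1, which fell, have no promoter entry and are in neither set. A match describes the letters in this window and shows neither binding nor use.

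Whole promoters are shown for the abundant members Hspa5, Canx and P4hb, which fell, and for Herpud1, which rose and was added after its values were seen. Each line gives the 250 bases up to the annotated start, 5′ to 3′ on the strand of the gene in GRCr8, with the fixed parts of ERSE and ERSE-II in capitals. P4hb has none and stands without capitals.
Hspa5, chr3:38452766-38453015, plus strand: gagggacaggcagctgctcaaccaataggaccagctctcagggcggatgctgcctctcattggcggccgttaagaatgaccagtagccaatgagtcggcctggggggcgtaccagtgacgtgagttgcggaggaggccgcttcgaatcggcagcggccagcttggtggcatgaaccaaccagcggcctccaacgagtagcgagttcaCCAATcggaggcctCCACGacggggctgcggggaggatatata
Canx, chr10:35157858-35158107, minus strand: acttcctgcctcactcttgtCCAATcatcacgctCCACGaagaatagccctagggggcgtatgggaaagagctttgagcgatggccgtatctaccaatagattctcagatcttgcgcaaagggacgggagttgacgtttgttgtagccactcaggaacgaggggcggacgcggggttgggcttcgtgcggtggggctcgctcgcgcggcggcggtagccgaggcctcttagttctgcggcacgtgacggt
P4hb, chr10:106346912-106347161, minus strand: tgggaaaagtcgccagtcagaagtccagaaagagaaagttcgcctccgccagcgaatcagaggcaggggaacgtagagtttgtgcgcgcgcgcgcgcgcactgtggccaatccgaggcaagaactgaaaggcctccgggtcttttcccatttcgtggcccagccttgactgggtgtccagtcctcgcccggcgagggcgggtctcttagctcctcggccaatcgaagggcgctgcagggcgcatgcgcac
Herpud1, chr19:10614708-10614957, minus strand: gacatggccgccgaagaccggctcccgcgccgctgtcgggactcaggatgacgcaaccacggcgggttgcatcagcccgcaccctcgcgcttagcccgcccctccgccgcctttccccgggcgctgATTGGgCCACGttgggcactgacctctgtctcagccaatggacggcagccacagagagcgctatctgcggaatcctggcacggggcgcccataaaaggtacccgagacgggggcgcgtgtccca

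Hspa5 encodes BiP, the Hsp70 chaperone of the ER lumen, and lies on chromosome 3 at 13838304 to 13842762 in the deposited coordinates (rn6 is the one rat build that the submitters' notes name). It had 696, 739 and 783 CPM in the INS-SMA libraries, against 2434, 2398 and 2286 CPM in the INS-MOCK libraries. Every INS-SMA library was below every INS-MOCK library, and the log2 fold change was -1.68 (SE 0.05, n = 3 each, edgeR adjusted p = 1.07e-05). Its promoter, given above, has an ERSE close to the start. Hyou1, the ER Hsp110 chaperone that exchanges the nucleotide of BiP, had 80.2, 80.7 and 76.4 CPM in INS-SMA, against 454, 425 and 441 CPM in INS-MOCK. The log2 difference was -2.47 (SE 0.04), with an edgeR adjusted p of 2.99e-06, the smallest of the members.

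The lectin chaperones fell together. Canx encodes calnexin, the membrane-bound lectin that binds monoglucosylated glycoproteins, and had 497, 551 and 556 CPM in INS-SMA, against 1507, 1541 and 1427 CPM in INS-MOCK (log2 fold change -1.48, SE 0.06, edgeR adjusted p = 1.77e-05). Calr encodes its soluble counterpart calreticulin and had 205, 154 and 226 CPM in INS-SMA, against 1028, 1030.1 and 982 CPM in INS-MOCK (log2 fold change -2.38, SE 0.15, adjusted p = 7.61e-05). The groups were apart for both genes.

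Co-chaperones and small BiP-linked proteins fell to different extents. Sdf2l1, part of a complex with Dnajb11 that keeps unfolded proteins soluble, averaged 2.47 ± 0.54 CPM in INS-SMA and 26.6 ± 3.82 CPM in INS-MOCK (SD, n = 3 each), and its log2 fold change was -3.42. Creld2 (-2.36), a folding factor with thioredoxin-type cysteine motifs, and Manf (-2.23), a secreted factor that binds BiP, also fell by more than 4-fold. The J-domain proteins stimulate the ATPase of BiP, and all 3 fell: Dnajb11 (ERdj3) by 1.60, Dnajc3 (p58IPK) by 1.07 and Dnajb9 (ERdj4), which links BiP to IRE1, by 0.52 on the log2 scale. Dnajb9 averaged 64.2 ± 6.77 CPM in INS-SMA and 92.0 ± 7.94 CPM in INS-MOCK. Its adjusted p of 0.00737 was 0.205 when the most abundant of its transcript rows was tested in place of their sum, the highest of a range that began at 1.00e-04.

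Hsp90b1 (GRP94, the ER Hsp90, which folds a narrow set of clients) was the chaperone that did not pass. It had 75.6, 1.93 and 1.83 CPM in INS-SMA, against 412, 453 and 381 CPM in INS-MOCK. All INS-SMA libraries were below all INS-MOCK libraries, but INS-SMA replicate 1 stood far above the other 2. The log2 fold change was -3.98 (SE 1.59, edgeR adjusted p = 0.0822). Without INS-SMA replicate 1 it was -7.79 (adjusted p = 4.21e-05, with values between 4.21e-05 and 0.151 across settings). In raw counts, its 2 transcript rows held 940 and 318 in that library, 42 and 0 in replicate 2, and 47 and 0 in replicate 3. Reads of Hsp90b1 that lie in rows with no gene name are not in any of these values, and their part in the low levels was not tested.

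**Figure D2:**
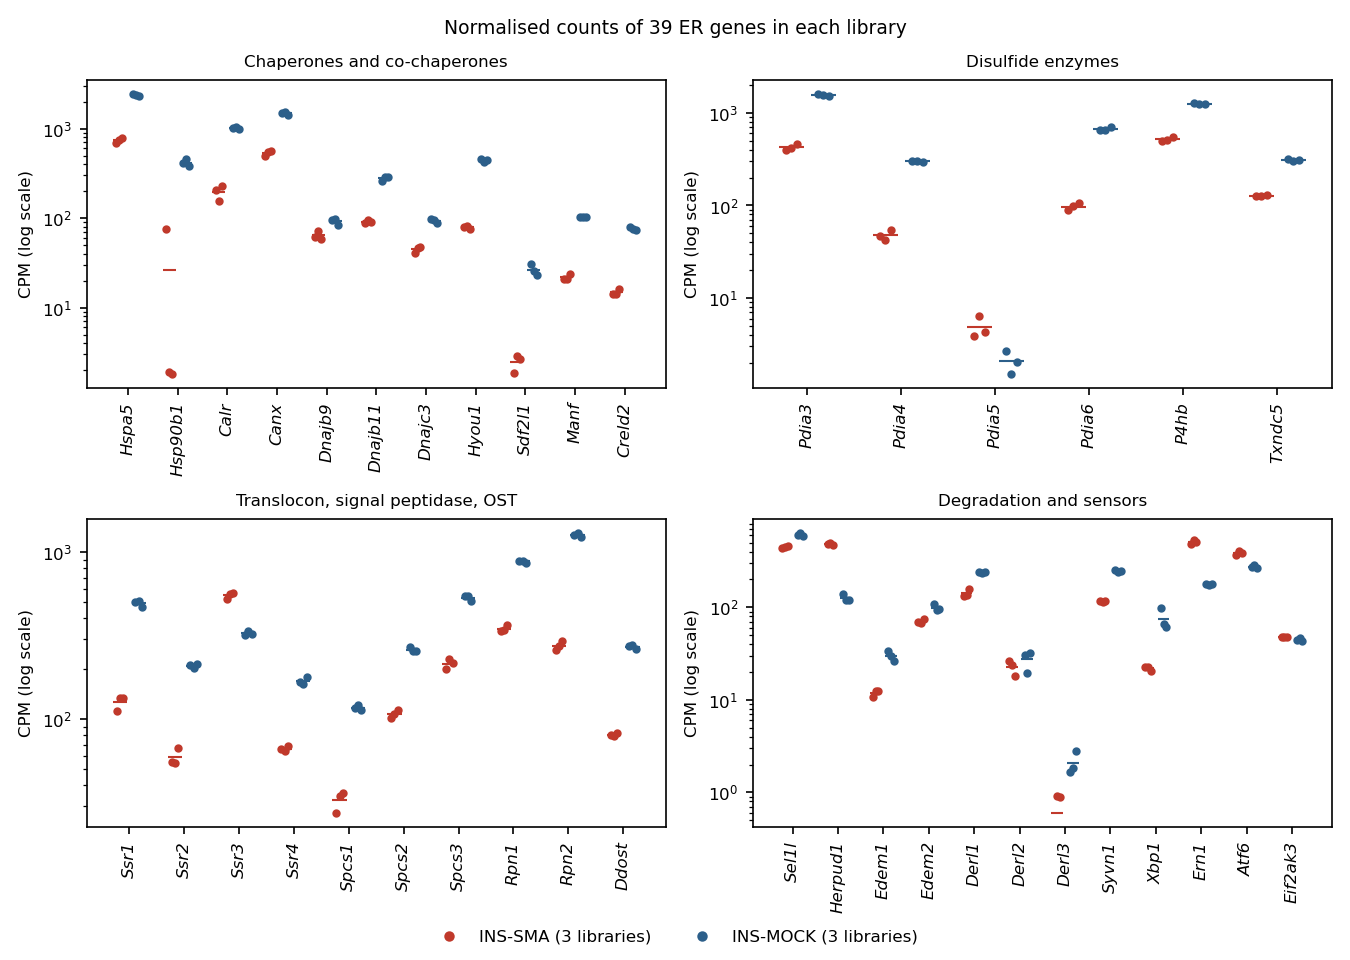
Normalised CPM (y axis, log scale) of the 39 ER genes (x axis) in each library, in 4 panels by role, with INS-SMA to the left of INS-MOCK for each gene and short lines for the group means. Most genes show 3 INS-SMA points well below 3 INS-MOCK points, and Pdia5, Ssr3, Herpud1, Ern1 and Atf6 show the reverse. The INS-SMA points of Eif2ak3, which did not pass, also lie above its INS-MOCK points, by a small margin. Hsp90b1 has a single high INS-SMA library at 75.6 CPM, and 1 INS-SMA library of Derl3 at 0 counts is not drawn.

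Of the 6 disulfide enzymes 5 fell and Pdia5 rose. Pdia3 (ERp57), which works with calnexin and calreticulin, had 401, 418 and 464 CPM in INS-SMA, against 1603, 1565 and 1539 CPM in INS-MOCK (log2 fold change -1.88, SE 0.06, edgeR adjusted p = 1.16e-05). P4hb, the founding protein disulfide isomerase and a subunit of prolyl 4-hydroxylase, had 494, 512 and 550.4 CPM in INS-SMA, against 1266, 1256 and 1237 CPM in INS-MOCK (log2 fold change -1.27, SE 0.05, adjusted p = 1.50e-05). Both genes were lower in all INS-SMA libraries than in any INS-MOCK library.

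Pdia6 and Pdia4 had the largest falls of the disulfide group. Pdia6 (P5), which associates with BiP and IRE1, had 88.4, 98.4 and 105 CPM in INS-SMA, against 657, 658 and 697 CPM in INS-MOCK (log2 fold change -2.78, SE 0.08, edgeR adjusted p = 6.86e-06). Pdia4 (ERp72) had 46.8, 42.1 and 55.0 CPM in INS-SMA, against 299, 305 and 294 CPM in INS-MOCK (log2 fold change -2.64, SE 0.11, adjusted p = 1.81e-05). Txndc5 (ERp46), which has 3 thioredoxin domains in mammals, had 125, 128 and 129.5 CPM in INS-SMA, against 316, 303 and 309 CPM in INS-MOCK (log2 fold change -1.28, SE 0.03).

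Pdia5, a little-studied member of the family, went the other way at a low level. It had 3.85, 6.47 and 4.32 CPM in INS-SMA, against 2.68, 1.52 and 2.05 CPM in INS-MOCK (log2 fold change 1.22, SE 0.33, edgeR adjusted p = 0.0230). The groups did not overlap but lay close together. The call was lost without INS-SMA replicate 2 (adjusted p = 0.0670), INS-MOCK replicate 2 (0.0645) or INS-MOCK replicate 3 (0.0690), with values between 0.00827 and 0.0917 across settings.

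Genes of protein entry and glycosylation fell with the chaperones. Ribophorin I (Rpn1), ribophorin II (Rpn2) and Ddost are subunits of oligosaccharyltransferase, and all 3 fell. Rpn2 had 258, 272 and 293 CPM in INS-SMA, against 1271, 1301 and 1239 CPM in INS-MOCK (log2 fold change -2.21, SE 0.06, edgeR adjusted p = 6.11e-06). Rpn1 had 338, 342 and 363 CPM in INS-SMA, against 889.7, 888 and 862 CPM in INS-MOCK (log2 fold change -1.34, SE 0.04, adjusted p = 8.37e-06). The fall of Ddost was -1.75 on the log2 scale, so the 3 subunits did not fall to the same extent, although that difference was not tested.

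Signal peptidase cuts the signal sequence from entering proteins, and its accessory and structural subunits Spcs1, Spcs2 and Spcs3 all fell. Spcs3 had 199.7, 229 and 216 CPM in INS-SMA, against 545, 543 and 511 CPM in INS-MOCK (log2 fold change -1.31, SE 0.06, edgeR adjusted p = 2.72e-05). Spcs1 fell by 1.84 and Spcs2 by 1.28 on the log2 scale. The call for Spcs2 was lost when its most abundant row alone was tested (log2 fold change -0.93, adjusted p = 0.0810, the highest over the settings tried), and the adjusted p from the gene sum was 1.98e-05.

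The 4 subunits of the translocon-associated protein complex, which helps some signal sequences engage the translocon, did not move together. Ssr1 (-1.97), Ssr2 (-1.82) and Ssr4 (-1.35) fell. Ssr3, the gamma subunit, rose, with 519.6, 559.9 and 571 CPM in INS-SMA, against 320.2, 334 and 323 CPM in INS-MOCK (log2 fold change 0.76, SE 0.05, edgeR adjusted p = 6.80e-05). It was higher in all 3 INS-SMA libraries than in any INS-MOCK library, and its direction and call were the same under all 16 alternatives tried. The deposited table has a single row for Ssr3, on chromosome 2 at 156011002 to 156014527.

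Of the 8 degradation genes 5 fell, 1 rose and 2 did not pass, with a median log2 fold change of -0.62. Sel1l, the adaptor of the HRD1 ubiquitin ligase complex, had 442, 453 and 463 CPM in INS-SMA, against 599, 635 and 586 CPM in INS-MOCK (log2 fold change -0.42, SE 0.04, edgeR adjusted p = 4.20e-04). Its groups were apart, although the change was small. Syvn1, which encodes the ligase HRD1 itself, fell by 1.08 on the log2 scale, and Derl1, a channel-like protein for retrotranslocation, fell by 0.75. The mannosidase-like proteins that mark misfolded glycoproteins fell as well, Edem1 by 1.33 and Edem2 by 0.49.

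Herpud1, a membrane protein that organises the HRD1 complex and a known target of the unfolded protein and integrated stress responses, rose. It had 478, 491 and 469 CPM in INS-SMA, against 138, 119 and 119 CPM in INS-MOCK (log2 fold change 1.94, SE 0.07, edgeR adjusted p = 1.44e-05). This was the largest rise of the 39 members and was present in all INS-SMA libraries.

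The other derlins did not pass the test. Derl2 had 26.2, 23.7 and 18.1 CPM in INS-SMA, against 30.4, 19.7 and 32.1 CPM in INS-MOCK, and it was the only member whose groups overlapped (log2 fold change -0.27, SE 0.24, edgeR adjusted p = 0.379). Derl3, which is induced by ER stress in mammals, was barely detected, with 0, 20 and 23 raw counts in INS-SMA and 40, 41 and 65 in INS-MOCK. A count of 0 allows up to 0.180 CPM in that library. Its log2 fold change was -1.75 (SE 1.02, adjusted p = 0.203), and it passed without INS-SMA replicate 1, the library at 0 (-1.20, adjusted p = 0.0460, with values between 0.0460 and 0.363 across settings).

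The 3 sensors and their effector Xbp1 split. Ern1, which encodes IRE1, the kinase and endonuclease that splices Xbp1 mRNA, rose. It had 487, 531 and 503 CPM in INS-SMA, against 178, 173 and 177 CPM in INS-MOCK (log2 fold change 1.52, SE 0.04, edgeR adjusted p = 6.86e-06). Atf6, whose protein is cut in the Golgi to release a transcription factor, had 370.2, 401 and 389 CPM in INS-SMA, against 271, 286 and 268 CPM in INS-MOCK (log2 fold change 0.49, SE 0.04, adjusted p = 3.20e-04). For both sensors the groups did not overlap.

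Eif2ak3, which encodes PERK, the kinase that phosphorylates the initiation factor eIF2 alpha, had 47.6, 48.0 and 47.5 CPM in INS-SMA, against 43.8, 46.8 and 43.1 CPM in INS-MOCK. With a log2 fold change of 0.10 (SE 0.06) and an edgeR adjusted p of 0.203 it did not pass, although the groups did not overlap. It passed without normalisation factors (0.19, adjusted p = 0.0293), and its most abundant row had the opposite sign (-1.01, adjusted p = 0.525), with values between 0.0293 and 0.525 across settings. Xbp1 fell, with 22.6, 22.7 and 20.7 CPM in INS-SMA, against 97.5, 66.5 and 61.2 CPM in INS-MOCK (log2 fold change -1.77, SE 0.19, edgeR adjusted p = 6.81e-04). INS-MOCK replicate 1 was the highest for Xbp1, and without it the log2 fold change was -1.53 (adjusted p = 3.36e-04, with values between 3.93e-17 and 0.00479 across settings). The table has a single row for Xbp1, so spliced and unspliced Xbp1 mRNA cannot be told apart in it.

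Transcript rows limit how closely single genes can be read. Of the 39 members 21 had a single row and 18 had several, and the counts were summed over rows. In 3 of them, Eif2ak3, Ern1 and Spcs2, the share of a row in the counts of its gene ranged by over 50 percentage points between libraries. For Ern1, the second row held 4, 7555 and 1522 counts in INS-SMA and 950, 990 and 856 in INS-MOCK, while the main row held 8100, 3992 and 11406 in INS-SMA and 3371, 2867 and 2839 in INS-MOCK. The summed CPM given above was close between libraries of a group, and the main row alone rose by 1.58 on the log2 scale (adjusted p = 0.0213). For Spcs2, the second row held 31, 41 and 28 counts in INS-SMA and 113, 54 and 3416 in INS-MOCK. Calr had a second row with 0, 5760 and 0 counts in INS-MOCK, and its fall was -2.68 in the main row alone.

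**Figure D3:**
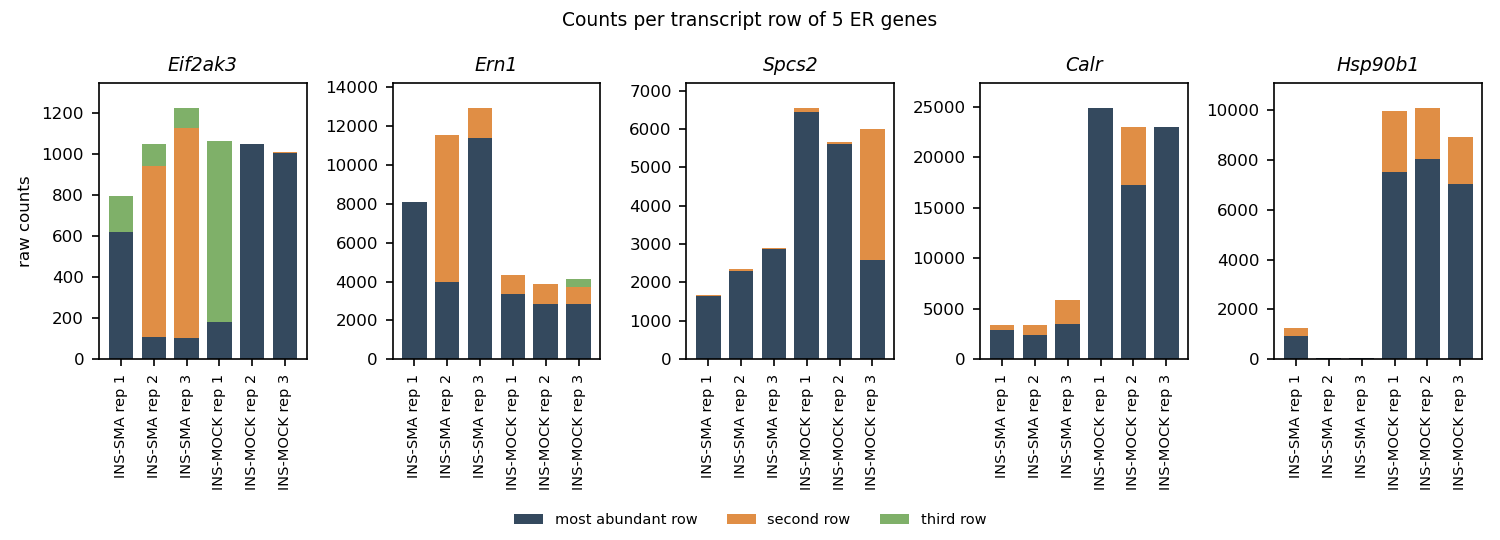
Raw counts (y axis, a linear scale of its own in each panel) of Eif2ak3, Ern1, Spcs2, Calr and Hsp90b1 in the 3 INS-SMA libraries and then the 3 INS-MOCK libraries (x axis), stacked by transcript row. Counts pass between rows of Eif2ak3, Ern1 and Spcs2 from library to library, and the height of a stack also varies with library depth, for which these counts are not scaled. Hsp90b1 has almost no counts in either of its named rows in INS-SMA replicates 2 and 3, and unnamed rows are not drawn.

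A wider list of ER genes was read in the same fit. It held 87 further genes found in the table, of which 81 were tested. Of these 58 fell (71.6%), 10 rose (12.3%) and 13 did not pass, with a median log2 fold change of -0.82. Across all tested genes 27.0% fell and 28.1% rose. At least 2-fold falls were seen in 31 of them, or 38.3%, against 12.5% of all tested genes. By role, the medians were -1.47 for translocation and glycosylation (18 of 21 fell, 0 rose), -1.10 for disulfide chemistry (13 of 15 fell, 1 rose), -0.94 for chaperones (13 of 18 fell, 3 rose) and -0.25 for degradation and sensing (14 of 27 fell, 6 rose). The share of rises in degradation and sensing, 22.2%, was below the 28.1% of all tested genes, and its share of falls, 51.9%, was above the 27.0%.

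The translocon channel itself fell: Sec61a1, its pore subunit, averaged 160.4 ± 5.50 CPM in INS-SMA and 597 ± 11.9 CPM in INS-MOCK (SD, n = 3 each), and Sec61b had a log2 fold change of -1.84. Among folding enzymes, the cyclophilin Ppib (-1.68), the reductase Dnajc10 (-1.56), the membrane thioredoxin Tmx1 (-1.11) and the sulfhydryl oxidase Qsox1 (-1.64) fell. The chaperone-list genes that rose were Dnajc1 (1.26), Fkbp7 (2.18) and Dnajb12 (0.35), and the disulfide gene that rose was Txndc12 (0.53). In degradation, the segregase gene Vcp (-0.46), which pulls proteins out of the ER membrane, and the ligase gene Rnf5 (-1.21) fell. The ATF6 paralogue gene Atf6b (-0.87) and the related membrane-bound transcription factor genes Creb3 (-0.39), Creb3l1 (-0.80) and Creb3l2 (-1.23), named after their values were seen, fell as well. Ngly1 (0.83), which removes glycans from retrotranslocated proteins, rose, as did the membrane adaptors Faf2 (0.25) and Aup1 (0.28) and the ubiquitin-conjugating enzyme genes Ube2g2 (0.37), Ube2j2 (0.24) and Ube2j1 (0.48).

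**Figure D4:**
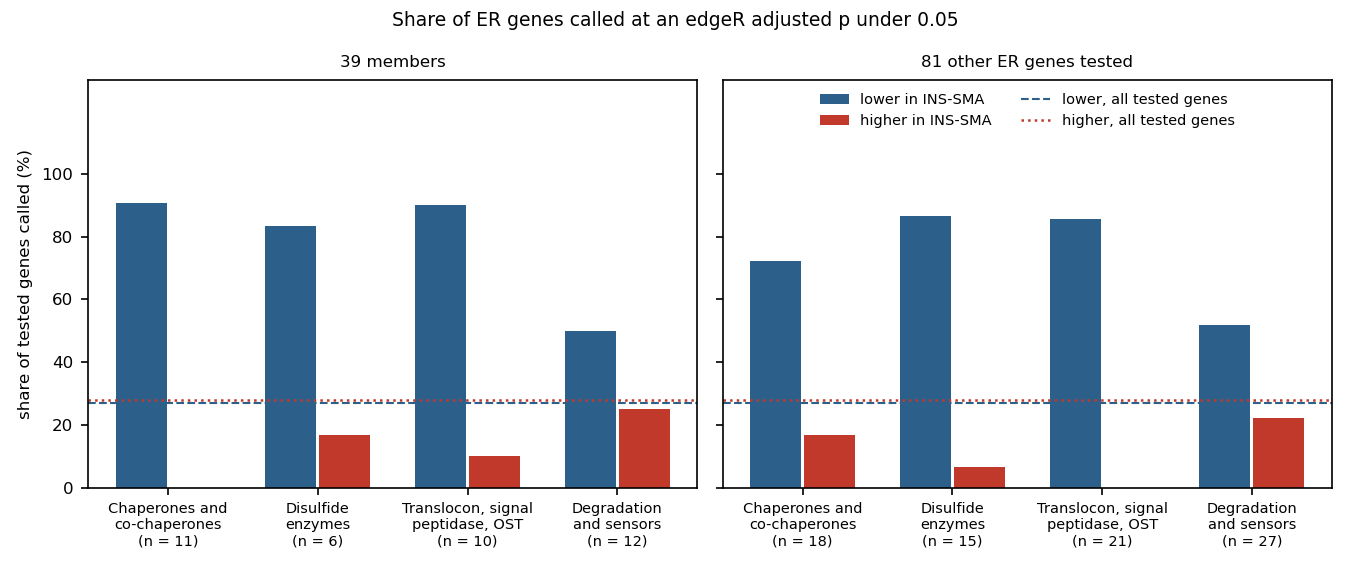
Share of tested genes (y axis, %) that fell or rose in INS-SMA at an edgeR adjusted p under 0.05, by role group (x axis), for the 39 members (left) and the 81 other ER genes tested (right). Dashed and dotted lines mark the shares over all 13363 tested genes, 27.0% lower and 28.1% higher. In both panels the degradation and sensor group has the smallest share of falls (50% and 51.9%) and the largest share of rises (25% and 22.2%). These shares of rises lie below that of all tested genes.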

How the data were processed

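RNA-seq of 6 INS-1 libraries was analysed, 3 INS-SMA and 3 INS-MOCK, which the series describes as biological replicates. The authors deposited raw counts per transcript row, whole numbers with 1 column per library. The submitters' processing notes list the tools HISAT2, HISAT and DESeq2 and the builds hg19 and rn6, with no role for any of them. The sources used here do not give the counting program, strand setting or annotation version.

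Counts were summed per gene over 35604 named rows, and 66301 rows without a gene entered neither the library sizes nor the tests. edgeR 4.0.16 (R 4.3.3) was used with filterByExpr, TMM factors and the quasi-likelihood F-test with group as the only term, with Benjamini-Hochberg adjustment over 13363 genes and a threshold of 0.05. CPM values use the TMM-scaled library sizes. The SE is the log2 fold change divided by the square root of F. A floor of 3 counts was used for a count of 0, and floors cover counting error only. Transcript lengths are not in the table, so levels were not compared between genes.

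The members and lists were chosen with earlier results of these data known. Values per library are given for Hspa5, Calr and Pdia4, the 4 members with the most CPM in each role group, members called against most of their group, Xbp1 and the sensors, and members that did not pass. From the wider list, the 2 called genes of each role group with the smallest adjusted p and those called the other way are named. In degradation and sensing these 2 are Ngly1, which rose, and Vcp, which fell; all rises of that group are named, and Rnf5, Atf6b, Creb3, Creb3l1 and Creb3l2 were added after their values were seen. Promoters are from RefSeq (GRCr8), matched by symbol.

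Libraries of a group differed beyond counting noise, with a chi-square of 45.0 to 58.6 for each degree of freedom. On simulated counts for 13363 genes of this comparison, with 200 changed, 25.3% of the genes set to a log2 change of 1 and 74.3% of those set to 2 were called, with 1 unchanged gene. Far more genes were called in the data (7359, or 55.1%), and the Benjamini-Hochberg cutoff is stricter when few genes change. The simulated shares therefore do not measure how many changes of these sizes the real comparison finds. Alternatives were other normalisation factors, other count filters, DESeq2 1.42.0, other library sizes, the most abundant row, each library left out and a replicate block.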

Additional observations from a re-analysis of the deposited data

How the results depend on the processing

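Of the 39 members, 33 kept their direction and their side of the threshold under all 16 alternatives. The exceptions were Hsp90b1, Dnajb9, Pdia5, Spcs2, Derl3 and Eif2ak3. The count of members that fell was 28 to 31 under other settings and 30 to 32 with a library left out, and the count that rose was 4 to 6 and 4 to 5. Hsp90b1 passed with DESeq2 (log2 fold change -3.95, adjusted p = 0.0187). Eif2ak3 reversed in its most abundant row (-1.01); its counts pass between rows from library to library.

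Deviations of same-numbered libraries from their group means showed little correlation over the tested genes (-0.013, 0.0026 and -0.013). Sample titles give replicate numbers only, and whether same-numbered libraries were handled together was not tested. With a replicate block 30 members fell and 4 rose. The count of disulfide enzymes that rose, 1 in the main test (Pdia5), was 0 with the block and 0 to 1 with a library left out.

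The median log2 fold changes of chaperones, disulfide enzymes, the translocon group and degradation and sensor genes were -2.13, -1.48, -1.45 and -0.36 without normalisation factors. In the most abundant row they were -2.0 for chaperones, -1.48 for the translocon group and -0.71 for degradation and sensor genes. The last was -0.37 with the strict count filter, which tests fewer genes. No scaling moved the median of all tested genes by over 0.1. Adding unnamed rows to genes by position could not be run, because those rows carry no coordinates. The largest standard errors of the members were 1.59 for Hsp90b1, whose INS-SMA libraries differ widely, and 1.02 for Derl3, which has few counts.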

Other observations

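Beside the 39 members, 13 genes of the promoter table held an ERSE in the 250 bases before their start, and 6 of them were tested. Ero1b, an oxidase that recharges protein disulfide isomerase and is on the wider ER list, averaged 12.7 CPM in INS-SMA and 33.6 CPM in INS-MOCK (log2 fold change -1.41, SE 0.12, edgeR adjusted p = 2.77e-04). Birc5, which encodes survivin, a protein of mitosis and cell survival, was lower as well (-1.94, SE 0.13, adjusted p = 1.12e-04). Ankmy2 was higher (0.44, SE 0.08, adjusted p = 0.00533). Pan2, Ppm1l and Zfand2a did not pass the test. These genes were named after their values were seen.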
